A study of Mus musculus with 2 samples.

Results

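Hyaluronan is a long, unbranched sugar polymer of the matrix between cells, and this account follows 7 genes that make, bind, cross-link or cut it in the mouse cornea: the hyaluronan synthases *Has1*, *Has2* and *Has3*, the receptor gene *Cd44*, the matrix cross-linker gene *Tnfaip6* (TSG-6) and the hyaluronidases *Hyal1* and *Hyal2*. They were chosen by name, and all 7 were found among the 20198 genes of the count table. Their counts were read in each deposited cluster of cells in 2 single-cell libraries made from the corneas of male mice aged 6 to 8 weeks, whose strain is not given in the sources used here. The UW library held the pooled cells of 4 unwounded mice. The W library held those of 4 mice whose central corneal epithelium had been scraped within a circle of 2.5 mm and which were left to heal for 24 h. The labels name no transgene or drug. Per the study's methods, wounding was done under pentobarbital with topical procaine, the wound was stained with sodium fluorescein and given the antibiotic ofloxacin, and it was made to spare the stroma beneath. Whether the UW mice were given the anaesthetics or the antibiotic is not stated in the sources used here.

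Each synthase sits in the plasma membrane, joins glucuronic acid and N-acetylglucosamine from their UDP-sugars, and pushes the growing chain out of the cell. CD44 is the main cell surface receptor for hyaluronan, and TSG-6 passes heavy chains of the inter-alpha-inhibitor family onto it, which cross-links the matrix. HYAL2, anchored at the cell surface, cuts long chains into shorter ones, and HYAL1 cuts those further in lysosomes. Hyaluronan is known from the limbal and conjunctival rim of the eye and from healing corneal wounds.

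With 1 library in each condition, every interval below is an exact 95% interval that covers counting error of unique molecular identifiers (UMIs) only, neither the spread between mice nor that between libraries, and no p-value was made. Levels are UMIs per 1000000 UMIs (CPM), summed over the cells of a cluster. The UW library had 16450 cells (median 22014 UMIs) and the W library 12417 (median 20290 UMIs), and 52 cell barcodes occurred in both. Clusters 1 to 6, 8, 9 and 11 scored highest for the corneal epithelial (CEpC) markers and were summed as the epithelial class, and cluster 0, which scored 2.19 for the stromal (CSC) markers, is called stromal. Most UW epithelial cells lay in clusters 1, 2 and 3, and the largest W clusters of the class were 8, 5 and 9. Cluster 10 scored 2.48 for the corneal endothelial markers and 2.04 for the stromal ones, and is called by its number because *Penk*, *Myoc* and *Wisp2* led it. *Col8a1*, one of the endothelial markers, was also among its 10 leading genes. Cluster 7, led by *Lce3a* and *Krt23*, scored below 0 for all 6 classes and is also kept apart. Clusters 14 and 15 (monocyte-like), 16 (T-like) and 13 (shallow cells with *Ccl3* and *Acod1*, whose highest score, 3.16, was for the neutrophil markers) held at most 7 UW cells each, so their levels are given for W only.

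The bases before the start of *Has1* and *Tnfaip6* are shown because these were the members at least 2-fold higher in W in cluster 10. They come from RefSeq (GRCm38.p6), which held this region for 5 of the 7 members, and are printed up to the start of the gene in GENCODE M21. The last printed base lies 18 bases before the RefSeq start for *Has1* and 105 bases before it for *Tnfaip6*. The searched bases after it are not shown, and positions of matches are counted from the RefSeq start. *Has1* lies at chr17:17843323-17855205 on the minus strand and *Tnfaip6* at chr2:52038009-52056686 on the plus strand, and both are protein coding. Capitals mark matches to the motifs searched on both strands of the 250 bases before the RefSeq start: TGACGTCA (CRE), TGANTCA (AP-1), TTCNNNGAA (STAT) and the longer NF-kB motif.
Has1, chr17:17855206-17855438, minus strand: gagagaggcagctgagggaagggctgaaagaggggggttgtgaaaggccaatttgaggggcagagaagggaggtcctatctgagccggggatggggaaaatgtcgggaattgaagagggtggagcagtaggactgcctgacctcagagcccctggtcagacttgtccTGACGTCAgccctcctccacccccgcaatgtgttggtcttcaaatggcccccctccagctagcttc
Tnfaip6, chr2:52037863-52038008, plus strand: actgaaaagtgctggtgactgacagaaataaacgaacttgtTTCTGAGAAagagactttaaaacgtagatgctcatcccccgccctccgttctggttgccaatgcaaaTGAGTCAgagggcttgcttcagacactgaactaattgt
The *Has1* region held 1 CRE match, 83 to 76 bases before the RefSeq start, a motif found in 1.55% of the 32851 RefSeq regions of the same length. In the *Tnfaip6* region an AP-1 match (TGAGTCA) lay 142 to 136 bases and a STAT match (TTCTGAGAA) 209 to 201 bases before the RefSeq start. These motifs were found in 6.75% and 7.02% of all regions. The NF-kB motif matched in neither region and in 1.41% of all. None of the 4 motifs matched before the start of *Cd44*, *Hyal1* or *Hyal2*.

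Among clusters with at least 50 cells *Has1* was highest in the stroma and cluster 10, and its level was higher in W in both. In the stromal class *Has1* stood at 2.5 CPM in UW (71 UMIs) and 10.1 CPM in W (328 UMIs), a log2 ratio of 2.02 (1.64 to 2.41). In cluster 10 it was at 2.80 CPM in UW (16 UMIs) and 44.8 CPM in W (373 UMIs), a log2 ratio of 4.00 (3.28 to 4.82). The UW levels of these groups overlapped within their intervals, and the W levels did not. In the W library 37.1% of all *Has1* UMIs came from cluster 10, which held 5.09% of its cells, against 8.60% of the *Has1* UMIs in UW, where cluster 10 held 3.43% of the cells.

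In the stromal class and cluster 10, both the share of cells with *Has1* and the number of UMIs per such cell were higher in W. At the cells' own depth these numbers averaged 1.127 in UW and 1.665 in W in the stromal class. They averaged 1.067 and 2.937 in cluster 10, but 1.342 and 1.067 in the epithelial class. In cluster 10, 2.65% of 565 UW cells and 20.1% of 632 W cells had a *Has1* UMI, at median depths of 9288 and 12198 UMIs. Thinned to 5000 UMIs per cell, with shallower cells left out, the shares were 1.46% (0.634 to 2.86) of 547 cells and 11.6% (9.20 to 14.4) of 620 cells. In cluster 7, where *Has1* was scarce, 0.0662% of 1511 UW cells (1 cell) and 0.758% of 528 W cells (4 cells) had a UMI, at median depths of 23636 and 21233 UMIs. No thinned cell of cluster 7 had one in either library. No UW cell of cluster 10 had more than 2 *Has1* UMIs, whereas 23 W cells had 5 or more and held 53.1% of the cluster's *Has1* UMIs. The stromal class was more even, with 7 W cells at 5 or more UMIs and 13.4% of its *Has1* UMIs in them.

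**Figure D1:**
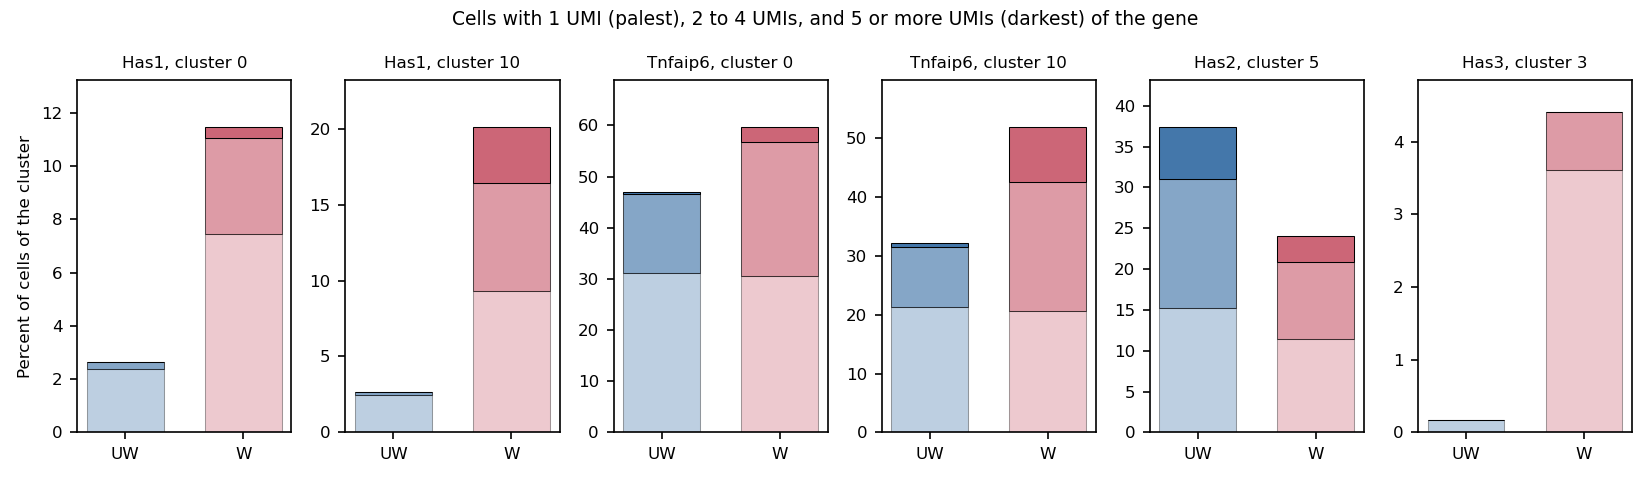
The percent of cells of a cluster (vertical axis, starting at 0, with its own scale in each panel) that had 1, 2 to 4, or 5 or more UMIs of *Has1*, *Tnfaip6*, *Has2* or *Has3*, in UW (blue) and W (red). Has1 in cluster 10 goes from 2.65% of cells in UW to 20.1% in W with a new top layer of 23 cells at 5 or more UMIs, while Has2 in cluster 5 goes from 37.4% to 24.1%.

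Within cluster 10 of the W library, cells with a *Has1* UMI more often had UMIs of *Tnfaip6* and of *Gfpt2*, which encodes the entry enzyme of UDP-N-acetylglucosamine synthesis. At 5000 UMIs per cell, *Tnfaip6* was found in 48.6% (36.7 to 60.7) of the 72 cells with *Has1* and 30.8% (27.0 to 34.9) of the 548 cells without it. *Gfpt2* was found in 41.7% (30.2 to 53.9) and 19.7% (16.5 to 23.3). The intervals did not overlap for these 2 genes, while those of *Uap1* (52.8% and 40.0%), *Ugdh* (44.4% and 33.6%), *Cd44* (20.8% and 21.5%) and *Spp1* (25.0% and 33.0%) did. *Myoc*, one of the leading genes of the cluster, was in 15.3% (7.88 to 25.7) of cells with *Has1* and 28.8% (25.1 to 32.8) of those without, which overlap as well. In the stromal class of W, *Tnfaip6* was in 31.8% (22.1 to 42.8) of 85 cells with *Has1* and 25.8% (23.6 to 28.0) of 1623 without, which overlap. These are cells of 1 library and not replicates.

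In the epithelium *Has1* was sparse. Over the clusters with at least 50 cells its intervals overlapped in 11 of 11 neighbouring pairs in UW and 13 of 15 in W. The epithelial class held 0.330 CPM in UW (98 UMIs) and 1.26 CPM in W (286 UMIs), a log2 ratio of 1.93 (1.60 to 2.28). In UW the mitotic cluster 8 (1.64 CPM), the S-phase cluster 11 (1.00 CPM) and the basal cluster 3 (0.976 CPM) lay above the suprabasal cluster 4 (0.0232 CPM, 1 UMI) and the superficial cluster 6 (0.0459 CPM, 2 UMIs). In W the level of *Has1* was 1.99 CPM in cluster 4 (45 UMIs), 1.53 in clusters 1 and 2, and 1.52 in cluster 8. The log2 ratio was 2.52 (1.51 to 3.57) in cluster 1, or 4.88 in thinned cells, where 1 UW and 7 W cells had a UMI, and 4.54 (3.05 to 6.49) in cluster 2. In cluster 4 it was 6.42 (3.87 to 11.8), resting on the single UW UMI, while in clusters 3, 8 and 11 its interval held 0.

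Stromal RNA that drifts into other droplets was measured with 4 stromal genes. In UW, *Kera*, *Lum*, *Col1a1* and *Col1a2* in the epithelial class were at 0.331% to 0.447% of their level in clusters 0 and 10 together, and in W at 0.659% to 1.08%. *Has1* in the epithelial class was at 13% of its stromal level in UW and 7.33% in W, above all 4 references. *Tnfaip6* was at 0.489% and 1.07%, close to the highest reference in each library.

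**Figure D2:**
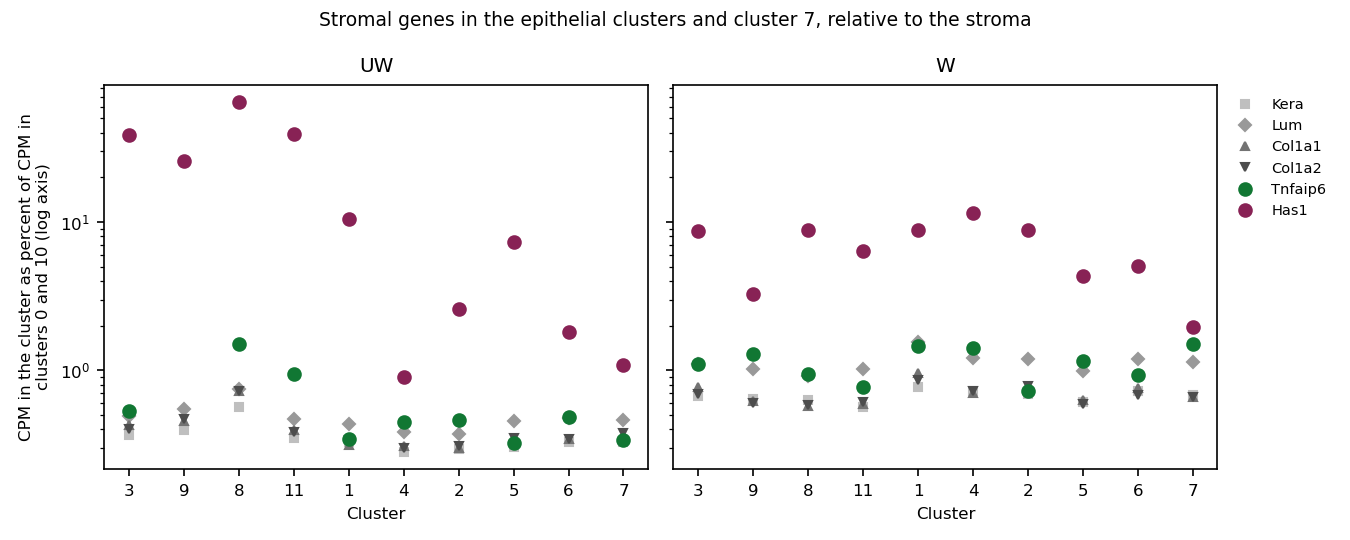
CPM of each gene in a cluster as percent of its CPM in clusters 0 and 10 together (vertical log axis), for the epithelial clusters and cluster 7 (horizontal axis), UW left and W right. In the epithelial class the 4 stromal references (grey) reach 0.447% in UW and 1.08% in W, Tnfaip6 (green) is at 0.489% and 1.07%, and Has1 (purple), at 13% and 7.33%, lies above the references in every cluster shown. A point at 0 (Tnfaip6 in cluster 9 of UW) is not drawn.

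*Has2* was found mostly in cluster 5, whose highest epithelial score was for the conjunctival markers (2.25), and *Has2* is itself among the 10 leading genes of that cluster, so its high level there describes the cluster. The level was 41.6 CPM in UW (1120 UMIs) and 20.1 CPM in W (726 UMIs), a log2 ratio of -1.05 (-1.19 to -0.91). At 5000 UMIs per cell, 15.1% (13 to 17.4) of 1066 UW cells and 8.44% (6.91 to 10.2) of 1173 W cells had a *Has2* UMI, and the log2 ratio was -0.74 in the thinned counts and -0.85 by the mean of CPM per cell. The unthinned shares were 37.4% and 24.1%, against 0.169% and 1.05% in the stromal class, where median depths were 11853 and 17588 UMIs. The gene lies at chr15:56665627-56694539 on the minus strand, where *Has2os* overlaps it on the opposite strand. Cluster 5 held 91.6% of all *Has2* UMIs in UW and 80.9% in W.

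Cells with *Has2* in cluster 5 more often had *Krt19*, a keratin of conjunctival and simple epithelia. In UW *Krt19* was in 92.5% (87.3 to 96.1) of the 161 cells with *Has2* and 66.9% (63.7 to 69.9) of the 905 without. The W values were 94.9% (88.6 to 98.3) of 99 cells and 69.6% (66.7 to 72.3) of 1074. *Cd44* went the other way, in 18.6% (12.9 to 25.5) of the UW cells with *Has2* and 29.9% (27.0 to 33.1) of those without. In W, *Cd44* was in 30.3% (21.5 to 40.3) and 45.6% (42.6 to 48.7). *Krt17*, a keratin of activated epithelium, was in 52.8% and 51.8% of these cells in UW, with overlapping intervals.

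Outside cluster 5 *Has2* was low in UW and higher in W in the superficial cluster 6, with 0.367 CPM in UW (16 UMIs), 2.22 CPM in W (33 UMIs) and a log2 ratio of 2.59 (1.69 to 3.55). In cluster 2, also highest for the superficial markers, *Has2* stood at 0.774 and 1.70 CPM, a log2 ratio of 1.14 (0.49 to 1.78) that was 0.29 in thinned cells. Summed over the epithelial class, *Has2* was at 4.08 CPM in UW and 3.74 CPM in W, with a log2 ratio of -0.13 (-0.25 to 0.00) whose interval reached 0.

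*Has3* was near the limit of detection in UW, and of the 12 clusters with at least 50 cells in each library the basal cluster 3 was the one whose share of cells with a UMI was higher in W, with intervals apart, also at equal depth. In the basal cluster 3 its level was 0.0915 CPM in UW (3 UMIs) and 2.22 CPM in W (50 UMIs), a log2 ratio of 4.60 (2.97 to 6.92). Cluster 11 had 0.308 CPM in UW (4 UMIs) and 1.76 CPM in W (35 UMIs), a log2 ratio of 2.51 (1.03 to 4.47), while median depth was 21461 UMIs in UW and 35514 in W. At 5000 UMIs per cell a *Has3* UMI was in 0.167% (1 cell) and 0.360% (2 cells) of cluster 11, with overlapping intervals, and the log2 ratio was 1.11. The mitotic cluster 8 had 0.235 CPM (3 UMIs) and 0.903 CPM (44 UMIs), and 0.392% and 0.381% of thinned cells. In cluster 9, led by *Wfdc18* and *Dlk2* and with nearly equal scores for the S-phase (1.51) and limbal (1.44) markers, *Has3* was already at 1.44 CPM in UW (11 UMIs), its highest UW level, and at 1.97 CPM in W (49 UMIs), where the interval of the ratio held 0 (-0.52 to 1.54). No *Has3* UMI was found in 605 monocyte-like W cells, which allows a share of cells with a UMI of up to 0.496% at 3 counts of the total (exact upper bound 0.608%), or in the 710 W cells of cluster 13, with a median of 2510 UMIs, which allows up to 0.423% (exact upper bound 0.518%). In cluster 3 a *Has3* UMI was in 4.41% of 885 W cells and 0.168% of 1789 UW cells. After thinning it was in 0.925% (0.40 to 1.81, 8 cells) and 0.0586% (0.00148 to 0.326, 1 cell), so *Has3* was a sparse signal. The 3′ end of *Has3* (chr8:106870242-106884566, plus strand) overlaps *Chtf8* on the opposite strand.

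**Figure D3:**
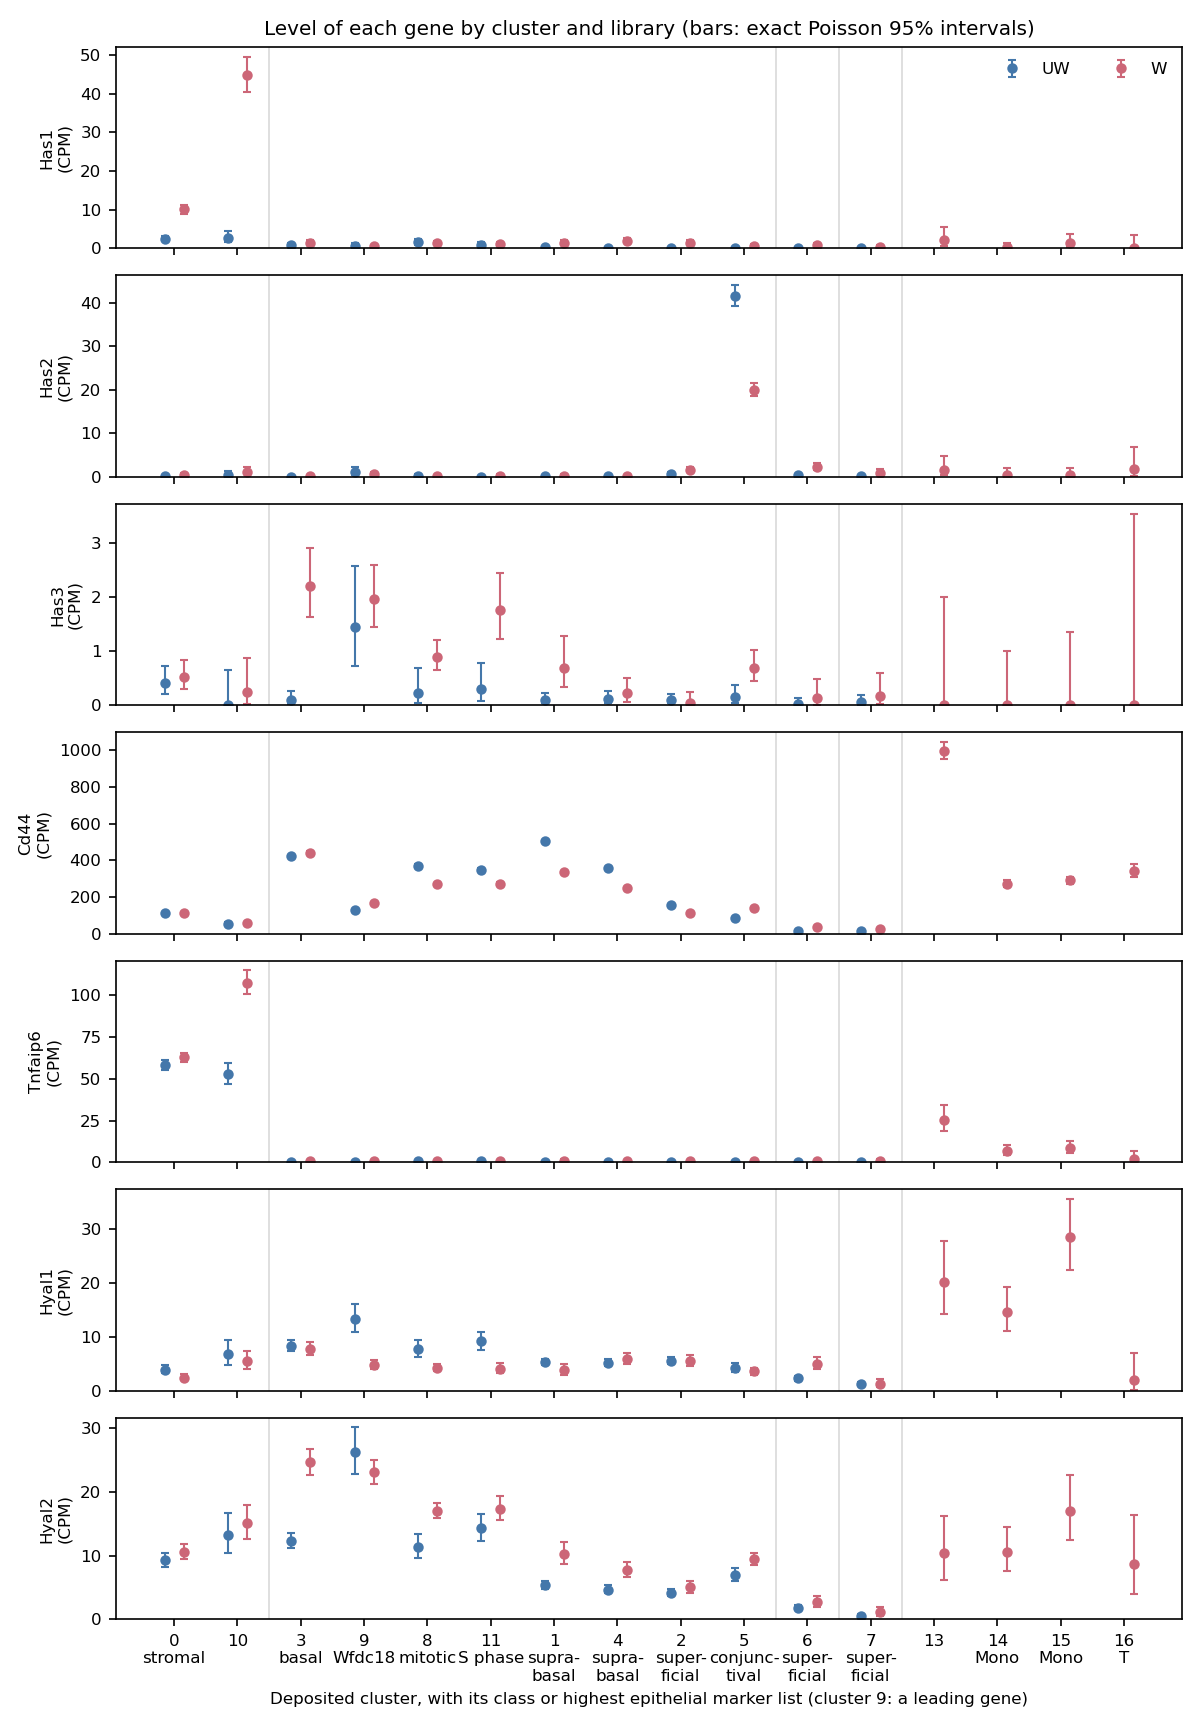
CPM of each gene (vertical axes, linear, starting at 0, 1 panel per gene) by deposited cluster (horizontal axis), UW blue and W red, with exact Poisson 95% intervals; clusters 13 to 16 are shown for W only. Has1 and Tnfaip6 stand out in clusters 0 and 10, Has2 in cluster 5, Has3 in clusters 3, 9 and 11 of W, and Cd44 in basal and suprabasal epithelium and cluster 13.

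*Cd44* was found in every cluster, and within the epithelial class it was highest in basal and suprabasal clusters and lowest in cluster 6, the cluster with the higher superficial score (1.83). Cluster 2, whose superficial score was 1.14, had 157 CPM in UW, above cluster 9 (128 CPM) and cluster 5 (88.3 CPM). In UW it was highest in the suprabasal cluster 1 (504 CPM), the basal cluster 3 (424 CPM) and the mitotic cluster 8 (370 CPM), and lowest in cluster 6 (17 CPM) and cluster 7 (14.4 CPM). Only 2 of the 11 neighbouring pairs in the UW order had overlapping intervals. In W the highest level was 997 CPM (952 to 1044) in cluster 13, followed by 442 CPM in cluster 3, 343 CPM in T-like cells and 334 CPM in cluster 1, and monocyte-like cells had 281 CPM. For drift of epithelial RNA, *Krt12* and *Krt5* in cluster 13 stood at 28.4% and 30.5% of their epithelial level, and *Cd44* at 438%.

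Across the epithelium the W library had less *Cd44* where UW had most of it, apart from the basal cluster 3 (424 and 442 CPM), and more where UW had little. Levels were lower in W in the suprabasal cluster 1, from 504 to 334 CPM (log2 ratio -0.59, -0.64 to -0.55), and cluster 4, from 357 to 248 CPM (-0.52, -0.57 to -0.48). They were higher in the conjunctival cluster 5, from 88.3 to 143 CPM (0.70, 0.63 to 0.77), in cluster 9, from 128 to 167 CPM (0.38, 0.28 to 0.49), and in the superficial cluster 6, from 17 to 40.0 CPM (1.24, 1.08 to 1.39). The intervals lay above 0 in 5 of the 12 clusters with at least 50 cells in each library (the ratio of cluster 3, 0.06, ranged from -0.01, with median-of-ratios scaling, to 0.28, in thinned cells, under the alternatives) and below 0 in 5. Over the class the level was 271 CPM in UW and 228 CPM in W, a log2 ratio of -0.25 (-0.27 to -0.24). The 5 neutrophil markers summed to 6.87 CPM in the UW epithelial class, with 1 of them at 0, and to 686 CPM in W, with 2 of them at 10 CPM or more, *S100a8* (160.5 CPM) and *S100a9* (525 CPM), which made up nearly all of the sum, and the part of RNA from such cells in the *Cd44* levels was not tested.

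Stromal *Cd44* was at 113 CPM in UW and 114 CPM in W, a log2 ratio of 0.01 (-0.06 to 0.08), and cluster 10 had 56.2 and 61.3 CPM, with an interval that also held 0 (-0.08 to 0.33). The UW levels were 41.7% of the epithelial one in the stromal class and 20.7% in cluster 10, where *Krt12* was at 5.29% and 6.10% of its epithelial level. A *Cd44* UMI was found in 65.8% of UW and 78.0% of W stromal cells, and in 39.0% (37.0 to 41.0) and 39.5% (37.2 to 41.9) of thinned ones. *Cd44* lies at chr2:102811141-102901665 on the minus strand, and these counts of 3′ ends do not tell its splice forms apart.

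*Tnfaip6* shared the stroma and cluster 10 with *Has1*, but the stromal class had it at much the same level in both libraries. Its level there was 58.0 CPM in UW (1651 UMIs) and 62.7 CPM in W (2034 UMIs), a log2 ratio of 0.11 (0.02 to 0.21). A UMI was found in 47.0% of UW and 59.6% of W stromal cells, and in 25.9% (24.1 to 27.7) and 26.1% (24.0 to 28.2) of thinned ones. The number of cells with 5 or more *Tnfaip6* UMIs was 10 of 2369 in UW and 51 of 1719 in W, at the cells' own depth, and 1 W cell held 62. In cluster 10 the level was 52.9 CPM in UW (302 UMIs) and 107 CPM in W (894 UMIs), a log2 ratio of 1.02 (0.83 to 1.22). There 32.2% of UW and 51.9% of W cells had a UMI, and thinned cells gave 21.8% (18.4 to 25.5), 32.9% (29.2 to 36.8) and a log2 ratio of 0.79.

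Among immune cells of the W library *Tnfaip6* was at 25.6 CPM (18.8 to 34.1) in cluster 13 and 7.66 CPM (5.67 to 10.1) in monocyte-like cells, 35.7% and 10.7% of the level in clusters 0 and 10. The 4 stromal references were at 2.42% to 5.76% in cluster 13 and 1.38% to 2.46% in monocyte-like cells. In cluster 13, 5.49% of cells had a *Tnfaip6* UMI, against 2.27% in cluster 7 of W, at median depths of 2510 and 21233 UMIs. Cluster 10 had 2.10 CPM of the 5 neutrophil markers in UW (2 of them at 0) and 148 CPM in W (1 at 0), and the stromal class 2.15 and 87.6 CPM. The 7 monocyte markers went from 22.8 to 50.7 CPM in cluster 10 and from 18.4 to 29.4 CPM in the stromal class, and the part of either list in the stromal values was not tested. The *Tnfaip6* level of cluster 13 was below that of cluster 10 in either library, and *Has1* was at 2.18 CPM (4 UMIs) in cluster 13. In the epithelial class *Tnfaip6* was at 0.280 and 0.771 CPM. It passed 1 CPM there in W in clusters 1 (1.04 CPM, 15 UMIs) and 4 (1.01 CPM, 23 UMIs), at 1.45% and 1.41% of the stromal level, where the 4 references were at 0.703% to 1.54%.

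*Hyal2* (chr9:107567945-107572779, plus strand) was higher in W than in UW epithelium. The epithelial class had 6.59 CPM in UW (1956 UMIs) and 13.8 CPM in W (3129 UMIs), a log2 ratio of 1.06 (0.98 to 1.15), which was 0.62 when the clusters were given the same weights in both libraries. Cluster 3 alone went from 12.3 to 24.7 CPM (1.00, 0.81 to 1.19, and 0.86 in thinned cells) and cluster 1 from 5.31 to 10.3 CPM (0.96, 0.66 to 1.25). Cluster 9 had the highest UW level, 26.3 CPM, with 23.1 CPM in W and an interval that held 0 (-0.42 to 0.05). *Hyal2* was lowest in cluster 7 in both libraries (0.551 and 1.09 CPM). In the stromal class it was at 9.25 and 10.6 CPM and in cluster 10 at 13.3 and 15.1 CPM, with intervals that held 0. The interval of the log2 ratio lay above 0 in 7 of the 12 clusters and below 0 in none.

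*Hyal1*, whose gene begins 4147 bases after the end of *Hyal2* (chr9:107576927-107581710, plus strand), was lower in W in cycling and limbal-scored epithelium. In cluster 9 its level was 13.3 CPM in UW (101 UMIs) and 4.78 CPM in W (119 UMIs), a log2 ratio of -1.47 (-1.87 to -1.08). Cluster 11 went from 9.15 to 4.07 CPM (-1.17, -1.60 to -0.75) and cluster 8 from 7.66 to 4.29 CPM (-0.84, -1.19 to -0.47). The superficial cluster 6 went the other way, from 2.32 to 5.04 CPM (1.12, 0.67 to 1.56, and 0.96 when scaled by the trimmed mean of M values (TMM) or by the median of ratios, below the 2-fold limit). A UMI was found in 17.5% of UW and 11.2% of W cells of cluster 9, against 2.71% and 2.84% in cluster 7. In thinned cells the shares of cluster 9 were 7.92% (5.72 to 10.6) and 2.32% (1.46 to 3.49). Those of cluster 7 were 0.670% in UW and 0% in W (exact upper bound 0.717%). The highest W levels were in immune cells, 28.4 CPM (22.4 to 35.5) in cluster 15 and 20.2 CPM (14.2 to 27.8) in cluster 13, and T-like cells had 1.92 CPM (2 UMIs). Stromal *Hyal1* was at 3.94 CPM in UW and 2.43 CPM in W (-0.69, -1.13 to -0.27). Reads of *Hyal1* may be shared with *Hyal3* and *Naa80*, which overlap it on the same strand, and *Hyal3* was also at least 2-fold lower in W in clusters 8, 9 and 11. The part of shared reads in the *Hyal1* ratios was not tested.

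**Figure D4:**
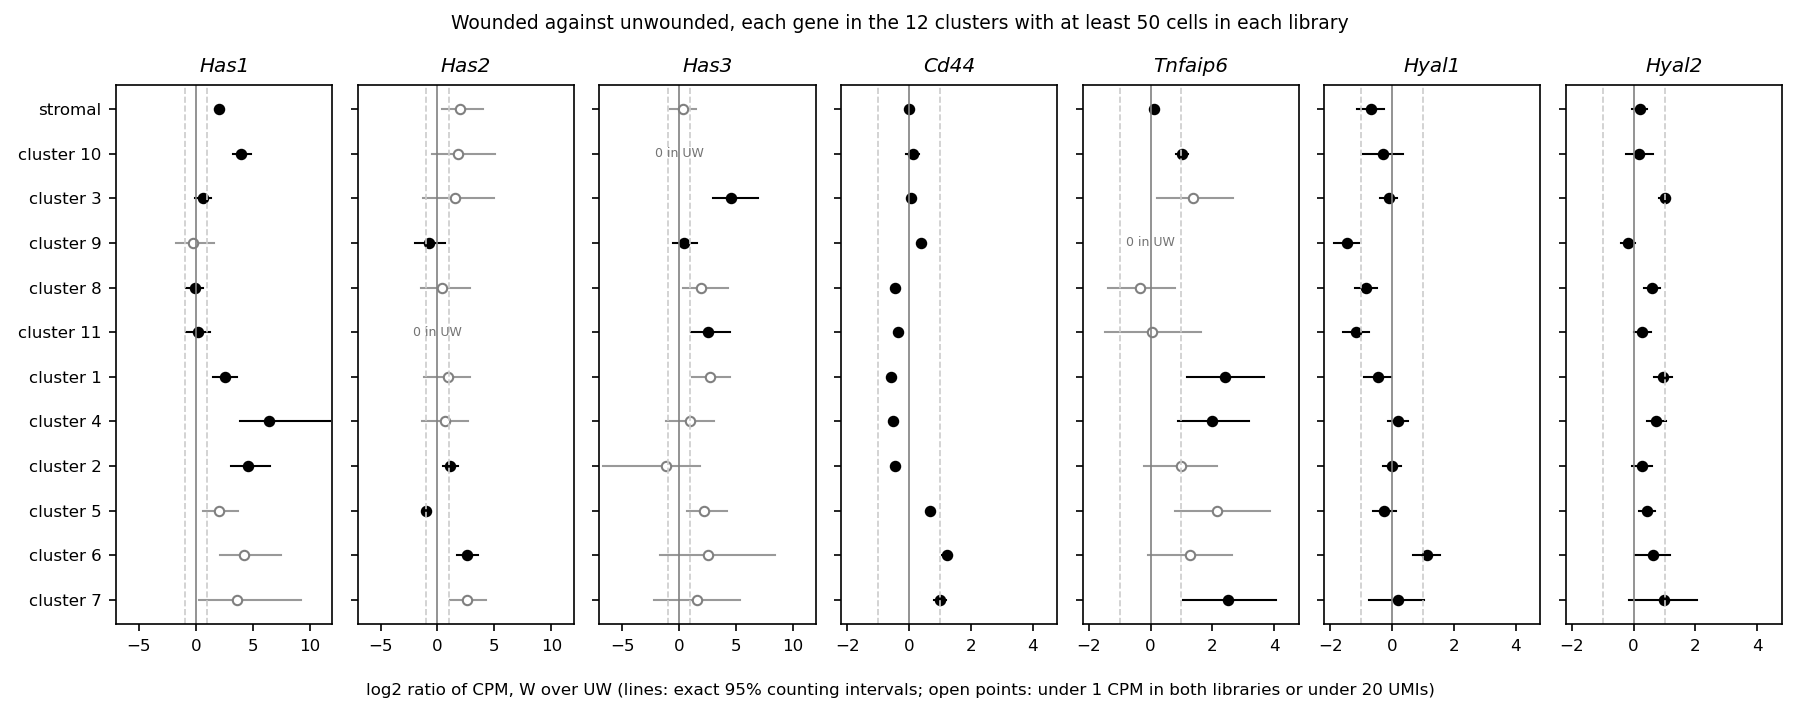
Log2 ratio of CPM, W over UW (horizontal axes, with a wider scale for the synthases), in the 12 clusters with at least 50 cells in each library (vertical axis), with exact 95% counting intervals, filled where the gene reached 1 CPM in either library and 20 UMIs over the pair. Has1 lies right of 0 in cluster 10 (4.00) and the stroma (2.02), Has2 left of 0 in cluster 5 (-1.05) and right in cluster 6 (2.59), and Hyal1 left of 0 in cluster 9 (-1.47).

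A gene was counted as 2-fold different where its log2 ratio was at least 1 or at most -1, and it had to reach 1 CPM in either library and 20 UMIs over the pair. In the stromal class 5 members met the limits on level and 1 of them, *Has1*, was at least 2-fold higher in W, where 6.22% of 12974 genes were, and none was lower, against 8.86% of genes. In cluster 10, 2 of 5 were higher (*Has1* and *Tnfaip6*), against 4.97% of genes, and none was lower, against 6.63%. In the epithelial class 2 of 5 were higher (*Has1* and *Hyal2*), against 16.1%, and none lower, against 7.81%. By cluster, 2 members were higher in cluster 3 (*Has3* and *Hyal2*, background 14.7%, with 10.6% lower), 2 in cluster 2 (*Has1* and *Has2*, 11.6%, with 12.9% lower) and 3 in cluster 6 (*Has2*, *Cd44* and *Hyal1*, 16.8%, with 9.06% lower). In cluster 1 *Has1* and *Tnfaip6* were higher (14.4%, with 10.1% lower), as they were in cluster 4 (12.5%, with 13.2% lower), and in cluster 7 *Cd44* and *Tnfaip6* were higher (24.1%, with 5.91% lower), where the ratio of *Cd44*, 1.01, was 0.63 with TMM and 0.60 with median-of-ratios scaling, below the limit. No member passed the limit in cluster 8 (9.19% higher and 9.78% lower). Cluster 5 had 1 member lower (*Has2*, 7.23%, with 10.6% higher), cluster 9 had 1 lower (*Hyal1*, 9.99%, with 8.64% higher), and cluster 11 had 1 lower (*Hyal1*, 9.54%) and 1 higher (*Has3*, 12.7%). Among the members that met the limits, the median log2 ratio was 0.11 in the stromal class, 0.19 in cluster 10 and -0.13 in the epithelial class, beside -0.16, -0.09 and 0.12 over all genes. Scaling by TMM in place of totals moved every ratio by 0.14 in the stromal class, 0.11 in cluster 10, -0.18 in the epithelial class and -0.38 in cluster 7.

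The rest of the pathway was read from a list of 35 other genes of precursor supply, breakdown, uptake and matrix binding, 31 of which were in the table. In the stromal class 24 met the limits and 3 were at least 2-fold higher in W, where 6.22% of all genes were: *Vcan*, the hyaluronan-binding proteoglycan versican (1.30 and 13.2 CPM, log2 ratio 3.34, 2.86 to 3.87), *Tlr2*, an innate immune receptor (9.70 and 20.7 CPM, 1.10), and *Hmmr*, a hyaluronan-binding protein of the mitotic spindle (0.527 and 1.39 CPM, 1.40). In cluster 10, 5 of 25 were higher, against 4.97% of all genes: *Ptx3*, a partner of TSG-6 in matrix assembly (1.93 and 11.8 CPM, 2.61, 1.71 to 3.66), *Vcan* (1.58 and 5.77 CPM, 1.87), *Tlr2* (1.68), *Gfpt2* (27.0 and 58.8 CPM, 1.12, 0.86 to 1.40) and *Hmmr*, whose interval held 0 (-0.18 to 3.50). In the epithelial class 5 of 18 were higher, against 16.1% of all genes: *Hmmr* (6.17 and 22.6 CPM, 1.87), the hyaluronidase gene *Cemip* (0.779 and 2.53 CPM, 1.70), the lysosomal glucuronidase gene *Gusb* (3.03 and 6.54 CPM, 1.11), *Gnpnat1* of UDP-N-acetylglucosamine synthesis (5.73 and 12.3 CPM, 1.10) and the scavenger receptor gene *Stab1* (0.202 and 1.63 CPM, 3.01). No gene of the list was 2-fold lower in these 3 groups as scaled here, but with TMM scaling the epithelial class had 3 higher and 2 lower. With cluster 7 added to the class and no change of scaling, 4 of 18 were higher (without *Gnpnat1*) and 1, *Gfpt1*, was lower. The shares of all genes were then 17.1% and 7.58%. The medians of the listed genes that met the limits were -0.01, 0.01 and 0.53 in stroma, cluster 10 and epithelium. The precursor enzyme gene *Ugdh*, which makes UDP-glucuronic acid, had log2 ratios of 0.26, 0.61 and 0.47 in stroma, cluster 10 and epithelium. *Gfpt1* was at -0.79, -0.58 and -0.83, and stromal *Cemip*, at 195 CPM in UW and 260 CPM in W, at 0.41.

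**Figure D5:**
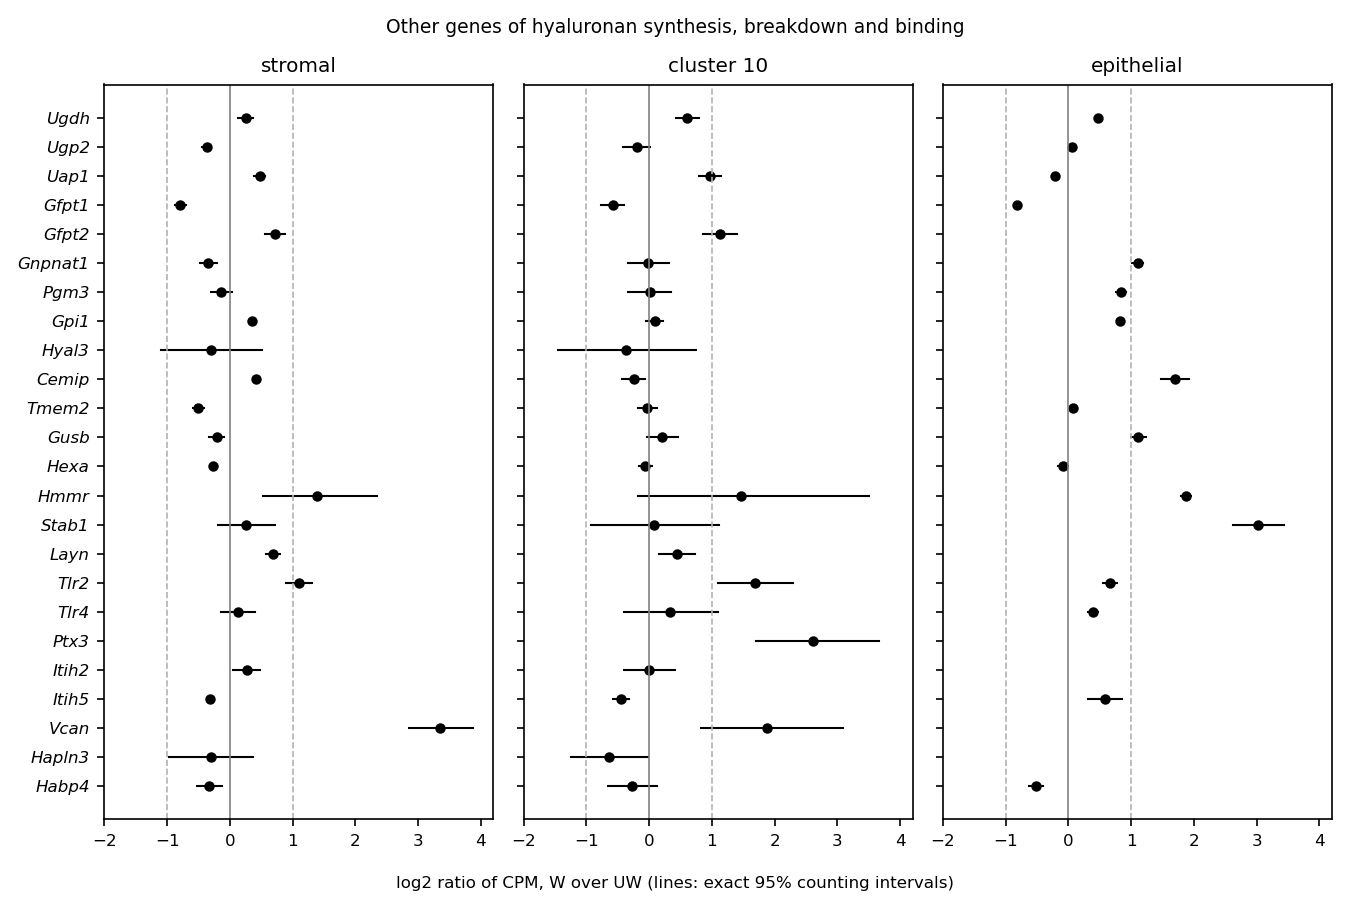
Log2 ratio of CPM, W over UW (horizontal axis), of the other listed genes that met the limits on level and are reported here, in the stromal class, cluster 10 and the epithelial class, with exact 95% counting intervals and dashed lines at 2-fold. Vcan (3.34) is farthest right in the stroma, Ptx3 (2.61) in cluster 10 and Stab1 (3.01) in the epithelium.

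The 10 genes listed as partners of CD44 were read as well. *Spp1*, whose product osteopontin is a CD44 ligand, was higher in W in the stromal class (1.16 and 55.7 CPM, log2 ratio 5.58), cluster 10 (257 and 1029 CPM, 2.0) and epithelium (0.327 and 12.5 CPM, 5.26). *Mmp9*, a protease that docks on CD44, was at 9.40 CPM in the W stroma (30 UMIs in UW and 305 in W, 3.16) and at 0 and 20 UMIs in cluster 10, at least 4.58-fold higher against a floor of 3 UMIs. Of the genes of the 3 linkers of CD44 to actin, *Msn* was at 1.08 and 35.3 CPM in the epithelial class (5.04), the more abundant *Ezr* at 608 and 331 CPM (-0.88) and *Rdx* at 122 and 125 CPM (0.03). *Esrp1*, a splicing factor that acts on *Cd44* in epithelia, was at 119 and 56.5 CPM in the epithelial class (-1.07, -1.10 to -1.04). In the stromal class 2 of the 10 genes were at least 2-fold higher and none lower, against 6.22% and 8.86% of all genes. In cluster 10, 2 were higher and 1 lower, against 4.97% and 6.63%. The lower one, *Esrp1*, had a log2 ratio of -1.02 (-1.68 to -0.37) there, which the TMM shift of 0.11 brings within the 2-fold limit. *Esrp1* stood in cluster 10 at 7.36% (UW) and 7.66% (W) of its epithelial level, where the keratin genes *Krt12* and *Krt5* stood at 6.10% to 7.64% of theirs. The part of epithelial RNA in its value there was not tested. In the epithelial class 2 of 9 were higher and 1 lower, against 16.1% and 7.81%. With cluster 7 added to the class, 2 of 9 were higher and none lower, against 17.1% and 7.58%. Medians were -0.16, 0.06 and -0.48. *Spp1* was at 3178 CPM in cluster 13 of W and 2904 CPM in monocyte-like cells, *Mmp9* at 524 and 30.6 CPM, *Msn* at 527 and 409 CPM and *Stab1* at 13.6 and 81.1 CPM. The neutrophil markers stood at 87.6 CPM in the stromal class, 148 CPM in cluster 10 and 686 CPM in the epithelial class of W. Nearly all of each sum was *S100a8* and *S100a9* (46.0 and 41.5 CPM in the stromal class, 57.0 and 89.9 CPM in cluster 10), and the part of RNA from immune cells in the values of these genes was not tested.

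The genes whose level over the 28 pairs of cluster and library with at least 50 cells was most like that of a member were ranked by Pearson's r of log2(CPM + 1) over 11716 genes. For *Tnfaip6* these were *Ptgir* (0.97), *Creb3l1* (0.97) and *Crispld2* (0.97), for *Has1* *Adamts4* (0.90), *Gm13305* (0.87) and *Frzb* (0.87), and for *Has2* *Sptssb* (0.88), *Sectm1b* (0.85) and *Krt4* (0.80). *Cd44* was most like *Ggct* (0.89), *Tmem131l* (0.89) and *Bzw1* (0.87), *Hyal2* like *Rrs1*, *Polr2h* and *Irf2bp2* (all 0.95), *Hyal1* like *Pla2g7* (0.86), *Lpcat2* (0.84) and *Fnip2* (0.83), and *Has3* like *Mgat4b* (0.79), *Dctd* (0.78) and *Col18a1* (0.78). Between members r was 0.76 for *Has1* and *Tnfaip6* and -0.01 for *Has1* and *Cd44*. The points share 2 libraries and so their depth and mice, and ranking by Spearman's rho gave none of the same top 3 for any member.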

How the data were processed

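Corneas of 4 mice per condition were pooled, the epithelial layer was separated from the rest by an enzyme digest and both were dissociated, and 1 droplet library of 3′ ends was made per condition, UW and W. The deposited table holds whole-number counts of UMIs per gene and cell, which the authors made with Cell Ranger (3.1.0) and an mm10 reference, while the submitters' processing notes name mm9, so positions are those of the annotation used here (GRCm38) and none was read from the table. Per the study's methods, low-quality cells, doublets and cells with a dissociation signature had been removed and clusters had been assigned with Seurat after the libraries were integrated. No doublet caller was run here; 469 cells that the first doublet column of either library names as doublets (305 of UW and 164 of W) were left out in an alternative. Neither strand use nor the strain is given in the sources used here, and antisense partners cannot be told apart.

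Counts were summed per cluster and library and divided by the total of the sum. Clusters were joined into classes by the mean standardised level of marker lists. Cluster 7 kept its number because it scored below 0 for every class. Clusters 10 and 17 kept theirs for their leading genes, and cluster 13 because it was shallow with no class marker among its leading genes. Their highest class scores were 2.48, 2.01 and 3.16. The epithelial clusters also had no marker of their class among their leading genes. Ratios are W over UW, with exact conditional binomial intervals, exact Poisson intervals for levels and exact Clopper-Pearson intervals for shares, all at 95%. The floor for a gene at 0 was 3 UMIs. Shares were also computed in cells thinned to 5000 UMIs with a fixed seed. The study's methods assigned cells to mice with Souporcell, but no map from cells to mice was used here, so a condition counts as 1 library, no test between conditions was made, and edgeR (4.0.16) and DESeq2 (1.42.0) gave scaling factors only. Other alternatives were a stricter filter (no cell under 1000 genes or above 5% of UMIs from mitochondrial genes) and the mean of CPM per cell. The epithelial clusters were also weighted by their share of UW epithelial cells in both libraries, and the limit on low counts was dropped. Added after seeing the data were cluster 7 in the epithelial class and leaving out the cell with the most UMIs of a member. The members, lists and limits were chosen with earlier results of these data known. Every member is named, and of the lists each gene past the 2-fold limit in the stromal or epithelial class, with those of cluster 10 and other listed genes added after their values were seen. The 3 genes most like each member were taken from genes that reached 10 CPM in a group. Python (3.11.15), scipy (1.17.1) and R (4.3.3) were used, and the interval code was tested on simulated data. A gene of the pathway list is not reported here by name.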

Additional observations from a re-analysis of the deposited data

Results flagged for a closer look

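*Has2* and *Hyal1* had ratios past the 2-fold limit in opposite directions in different epithelial clusters. The log2 ratio of *Has2*, W over UW, was -1.05 in the conjunctival cluster 5, and 1.14 and 2.59 in the superficial clusters 2 and 6. The value of cluster 5 was within the limit by the mean of CPM per cell (-0.85) and in thinned cells (-0.74), and that of cluster 2 in thinned cells (0.29), while that of cluster 6 stayed past it under each alternative. That of *Hyal1* was -1.47 in cluster 9 and -1.17 in cluster 11, and 1.12 in the superficial cluster 6, where it was 0.96 with TMM and with median-of-ratios scaling. With 1 library per condition these differences between clusters were not tested.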

How the results depend on the processing

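No paired analysis was possible because each condition is 1 library. Of 154 values of the members' log2 ratios in the stromal class, cluster 10 and the epithelial class under alternatives, 126 moved by less than their counting interval, 28 moved further, and no ratio past the 2-fold limit changed sign. For the ratios past the 2-fold limit, 31 of 39 values in these groups and 103 of 116 in single clusters stayed past it. With TMM and median-of-ratios scaling the stromal ratios of *Cd44* (0.15 and 0.18) and *Tnfaip6* (0.26 and 0.28) were higher, and the epithelial ones of *Has2* (-0.31 and -0.32), *Cd44* (-0.44 and -0.45), *Hyal1* (-0.39 and -0.40) and *Hyal2* (0.88 and 0.87) lower, since these factors shift every ratio of a group alike. In thinned cells the ratio was 0.79 for *Tnfaip6* in cluster 10, and in the epithelial class 0.069 for *Has2*, 1.73 for *Has3*, 2.08 for *Tnfaip6* and 0.84 for *Hyal2*. The mean of CPM per cell gave epithelial ratios of 0.038 for *Has2*, -0.30 for *Cd44*, 0.98 for *Tnfaip6* and 0.81 for *Hyal2*, and the stricter cell filter -0.29 for *Cd44*. With the clusters weighted alike in both libraries the epithelial ratios were -0.68 for *Has2*, 2.23 for *Has3*, -0.28 for *Cd44* and 0.62 for *Hyal2*, and with cluster 7 added -0.16 for *Cd44* and 1.15 for *Hyal2*. The stromal class and cluster 10 are 1 cluster each, so weights could not be changed there. The number of members at least 2-fold higher was 2 in the stromal class with no limit on low counts. In cluster 10 it was 1 with the stricter filter, the mean per cell and thinning. In the epithelial class it was 1 with TMM, median-of-ratios, thinning and clusters weighted by their UW share, and 4 with no limit on low counts. The cause was not tested. Single-cluster ratios near the limit, such as *Hyal2* in cluster 3 (0.86 to 1.07) and *Cd44* in cluster 7 (0.60 to 1.15), crossed it. The synthases were sparse, so in most clusters their levels rest on few UMIs.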

Other observations

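Cluster 17, with 29 W cells led by *Cxcl9*, *Gm5483* and *Acod1*, had its highest class score for the stromal markers (2.01) though none of these was among its 10 leading genes, and is called by its number. It had *Tnfaip6* at 54.4 CPM (36.4 to 78.1, 29 UMIs) and *Has1* at 11.3 CPM (4.13 to 24.5, 6 UMIs), beside 62.7 and 10.1 CPM in the stromal class of W, and held no UW cell. In cluster 10 of UW 1 cell held 27 *Tnfaip6* UMIs, more than any W cell of that cluster, where the highest had 11.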
